A study of Mus musculus with 4 samples.

Results

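Gpnmb and 9 further genes that microglia are known to switch on around injured or degenerating tissue (Spp1, Itgax, Cst7, Clec7a, Axl, Trem2, Tyrobp, Lgals3 and Igf1) were described across the cell types of the mouse thalamus, with and without a haemorrhage. These are 10 of the 40091 genes listed with a UMI (unique molecular identifier, 1 captured transcript) in the count tables. They were picked by name, with values of the haemorrhage against the control group in microglia of these same libraries already known. Their differences between the groups are therefore given as descriptions without a test. Single nuclei were profiled from wild-type C57BL6 mice aged 7 to 8 weeks, with 2 libraries in each group. The COL group had received collagenase IV (0.01 U in 10 nl), an enzyme that digests the vessel wall and causes bleeding, in the right VPM and VPL, the sensory relay nuclei of the thalamus. The NS group had received the same volume of saline at the same site. Tissue was taken 7 days after the injection, and each library pooled 3 mice, so differences between individual animals were not seen.

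Microglia, the resident macrophages of the brain, survey healthy tissue in a homeostatic state and change their programme when they meet dying cells, myelin debris or blood. A central switch is TREM2, a surface receptor for lipids and lipoproteins, which signals through its adaptor TYROBP (DAP12). Clec7a codes for dectin-1, a second receptor that uses an activating tyrosine motif, and Axl for a receptor kinase that recognises dying cells through the bridging ligand GAS6. Itgax codes for the integrin chain CD11c, and Gpnmb for a glycoprotein of lysosomes and the cell surface. Others code for secreted proteins, namely osteopontin (Spp1), insulin-like growth factor 1 (Igf1) and galectin-3 (Lgals3), which is also found in the cytosol. Cst7 codes for cystatin F, an inhibitor of lysosomal cathepsins. Macrophages that enter the brain from the blood can make many of the same products, so the cell type behind a signal has to be looked at gene by gene.

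All 10 identifiers matched the gene models of build GRCm38 (GENCODE M21). Gpnmb lies on chromosome 6 at 49036546 to 49070929 on the plus strand, Spp1 on chromosome 5 at 104435118 to 104441050 (plus) and Trem2 on chromosome 17 at 48346401 to 48354147 (plus). Clec7a, on chromosome 6 at 129461591 to 129472779 on the minus strand, is annotated as a polymorphic pseudogene in the reference strain, and the other 9 genes are annotated as protein coding. RefSeq promoter windows of build GRCm38.p6, reaching from 250 bases before to 50 bases after the start of a transcript, were found for 9 of the 10 genes, Tyrobp being the one without an entry. The 250 bases before the start are shown for Gpnmb, which was undetected in NS microglia and higher in macrophages than in microglia, for Spp1, a secreted partner in both comparisons, and for Trem2, which moved the other way. They are written 5′ to 3′ in lower case, with matches to the motifs searched in capitals.
Gpnmb, chr6:49036268-49036517, plus strand: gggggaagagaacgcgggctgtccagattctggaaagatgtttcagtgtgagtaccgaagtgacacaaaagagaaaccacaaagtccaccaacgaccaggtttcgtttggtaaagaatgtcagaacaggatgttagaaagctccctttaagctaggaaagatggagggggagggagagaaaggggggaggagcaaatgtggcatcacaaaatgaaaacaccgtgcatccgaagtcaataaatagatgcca
Spp1, chr5:104434861-104435110, plus strand: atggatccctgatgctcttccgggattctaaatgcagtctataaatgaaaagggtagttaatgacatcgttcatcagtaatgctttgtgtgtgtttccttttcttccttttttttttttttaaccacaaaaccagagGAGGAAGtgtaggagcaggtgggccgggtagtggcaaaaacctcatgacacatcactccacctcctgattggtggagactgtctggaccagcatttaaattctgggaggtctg
Trem2, chr17:48346151-48346400, plus strand: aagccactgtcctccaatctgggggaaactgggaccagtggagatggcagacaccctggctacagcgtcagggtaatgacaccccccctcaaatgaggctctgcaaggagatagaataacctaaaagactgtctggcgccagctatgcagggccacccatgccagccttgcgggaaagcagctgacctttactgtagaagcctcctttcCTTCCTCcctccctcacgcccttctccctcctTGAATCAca

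Both strands of the full windows were searched for TGANTCA, a looser form of the AP-1 core, which has C or G in the middle. GAGGAAG, a form of the site bound by PU.1 and other ETS factors, was searched too. So were TCACGTG and TCATGTG, bound by MITF, TFEB and related factors. TGANTCA was found in windows of 5 of the 9 genes (Gpnmb, Cst7, Itgax, Igf1 and Trem2) and, with any middle base, in 7.81% of all 32851 windows. The middle base was C in Gpnmb and G in Itgax, as in the AP-1 core, but A or T in Cst7, Igf1 and Trem2. In Gpnmb the first base of the match lies at position 9 after the start of the transcript, outside the stretch printed. GAGGAAG was found in windows of 4 of the 9 genes (Spp1, Axl, Igf1 and Trem2) and in 13.6% of all windows. Neither TCACGTG nor TCATGTG was found in a window of the 9 genes, and each was found in 3.77% of all windows. Spp1 and Clec7a had a further window each, and that of Spp1 held no match before the start. The counts are thus of genes with a match in any window, whereas the shares are of windows. A match is a run of letters and not a measured binding site.

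The libraries held between 68746459 and 77557870 UMIs, and 32291 nuclei passed the filters, with a median between 4649 and 8691 UMIs per nucleus. Clusters were built without the 10 genes or any gene of the lists below and were named from marker genes. Those of neuron-like, oligodendrocyte-like, astrocyte-like, oligodendrocyte precursor-like (OPC), microglia-like, macrophage-like and T and NK cell-like nuclei are called below by the cell type alone. Between 8 and 31 barcodes were shared by any 2 libraries. Microglia numbered 321 and 344 nuclei in the NS libraries and 372 and 551 in the COL libraries. Macrophages numbered 318 and 469 nuclei in COL but only 2 and 4 in NS, so their levels in NS are not given. With cell types given to single nuclei from their marker UMIs, the macrophages of COL fell to 108 and 73 nuclei. Different clusters held the microglia of each group. Of the NS microglia 318 and 339 lay in cluster 13, whereas the COL microglia lay in cluster 11 (294 and 420) and in cluster 23 (74 and 126), whose leading genes were the division genes Top2a and Mki67. Microglia were also deeper in COL, with median counts of 4054 and 4335 UMIs per nucleus against 2230 and 1995 in NS.

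The marker genes held for microglia in all libraries. The 10 microglia markers, among them Csf1r, Cx3cr1 and P2ry12, summed to 8322 and 8174 CPM (counts scaled to 1000000 UMIs of the cell type) in NS microglia and to 5317 and 5122 CPM in COL microglia. The 12 macrophage markers, among them F13a1, Arg1 and Thbs1, summed to 153.5 and 259 CPM in NS microglia, where 6 and 9 of them had a UMI. In COL microglia they summed to 639 and 751 CPM, with all 12 detected. Their part in the values below was not tested. The levels of some of them, and their sum, are set beside Gpnmb further down. In COL macrophages the same 12 markers summed to 4660 and 3739 CPM and the microglia markers to 1458 and 1727 CPM. More macrophage than microglia marker UMIs were found in 233 of the 293 macrophages with 3 or more Gpnmb UMIs and in 255 of the other 494. Division markers also moved with the group, from 47.1 and 65.5 CPM in NS microglia to 643.5 and 802.5 CPM in COL microglia.

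Gpnmb was not detected in any NS microglial nucleus and was present in both COL libraries. It had 0 UMIs in NS1 and NS2, and in COL1 and COL2 it had 74 and 301 UMIs, or 42.7 and 105 CPM. Against the 3 counts that a count of 0 allows over the NS group, it was at least 39.8-fold higher in COL, and 301 of the 375 COL UMIs came from COL2. Against the same floor of 2.05 CPM the bound was 20.8-fold for COL1 alone. COL2 was the higher COL library for Gpnmb and for 9 of the 10 genes, Itgax being the exception. Floors of this kind and the intervals below cover counting error only.

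Of the secreted proteins, osteopontin (Spp1) measured 1.35 and 8.36 CPM in NS1 and NS2 and 101.5 and 241 CPM in COL1 and COL2. Its pooled ratio was 39.3 (95% counting interval 19.0 to 98.1) and its fitted log2 fold change 5.21 (SE 0.54), which was 4.39 without NS1, 7.02 without NS2 and 4.45 without COL2. Igf1, a growth factor for neurons and oligodendrocytes, was at 8.08 and 8.36 CPM in NS and at 85.3 and 226 CPM in COL, a log2 fold change of 4.31 (SE 0.49) that was 3.44 without COL2. Both genes were higher in either COL library than in either NS library. Lgals3 had 1 UMI in all NS microglia, which gave 1.35 and 0 CPM, and reached 50.2 and 60.6 CPM in COL. Its ratio of 82.7 therefore had a wide counting interval (14.7 to 3279), and its fitted log2 fold change of 6.25 was 5.39 without NS2, while without NS1, where that UMI lay, no NS count was left to set a fold against. Galectin-3 was the most even of the 3 between the 2 COL libraries.

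The receptors Clec7a and Axl were low in NS and higher in COL. Clec7a (dectin-1) measured 2.69 and 2.79 CPM in the NS and 14.4 and 31.2 CPM in the COL libraries, with a log2 fold change of 3.13 (SE 0.63) that was 2.42 without COL2. Axl measured 2.69 and 6.96 CPM in NS and 20.8 and 29.4 CPM in COL, with a log2 fold change of 2.45 (SE 0.50). Over the settings compared this fold change lay between 1.90 and 3.30, the highest being that without NS2. The groups did not overlap for either gene. Itgax and Cst7, both classical members of the activated set, stayed close to the limit of detection and failed the filter on low counts. Itgax (CD11c) was at 1.35 and 0 CPM in NS and at 5.77 and 3.15 CPM in COL, and the counting interval of its ratio of 6.04 reached from 0.961 to 251. Cst7 had no UMI in NS microglia and 4 and 15 UMIs in the COL libraries, or 2.31 and 5.25 CPM. Against the floor of 2.05 CPM the bound was 1.12-fold for COL1 and 2.56-fold for COL2, so COL1 lay close to what a count of 0 allows.

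The receptor pair at the head of the pathway behaved differently. Trem2 was at 120 and 148 CPM in NS microglia and at 97.4 and 105 CPM in COL microglia, with a ratio of 0.765 (0.646 to 0.909). Tyrobp, its adaptor, was at 91.6 and 82.2 CPM in NS and at 46.7 and 70.0 CPM in COL, with a ratio of 0.704 (0.569 to 0.875). These intervals pool the UMIs of a group and leave out the spread between its libraries. Both genes were lower in either COL library than in either NS library, with fitted log2 fold changes of -0.33 (SE 0.19) and -0.49 (SE 0.23). The direction depended on the scaling. In UMIs per nucleus, the nuclei being deeper in COL, Trem2 stood at 0.277 and 0.308 in NS and at 0.454 and 0.544 in COL, and Tyrobp at 0.212 and 0.171 in NS and at 0.218 and 0.363 in COL. The fold change of Trem2 was -0.50 without NS1 and -0.14 without NS2, and that of Tyrobp -0.26 without COL1 and -0.82 without COL2. Hence in CPM 8 of the 10 genes lay higher in both COL libraries and 2 lay lower in both. Among all 25574 genes with a UMI in microglia, 24.1% lay higher in this way and 24.6% lower, and nothing is read from the count because the genes were picked on this contrast.

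**Figure D1:**
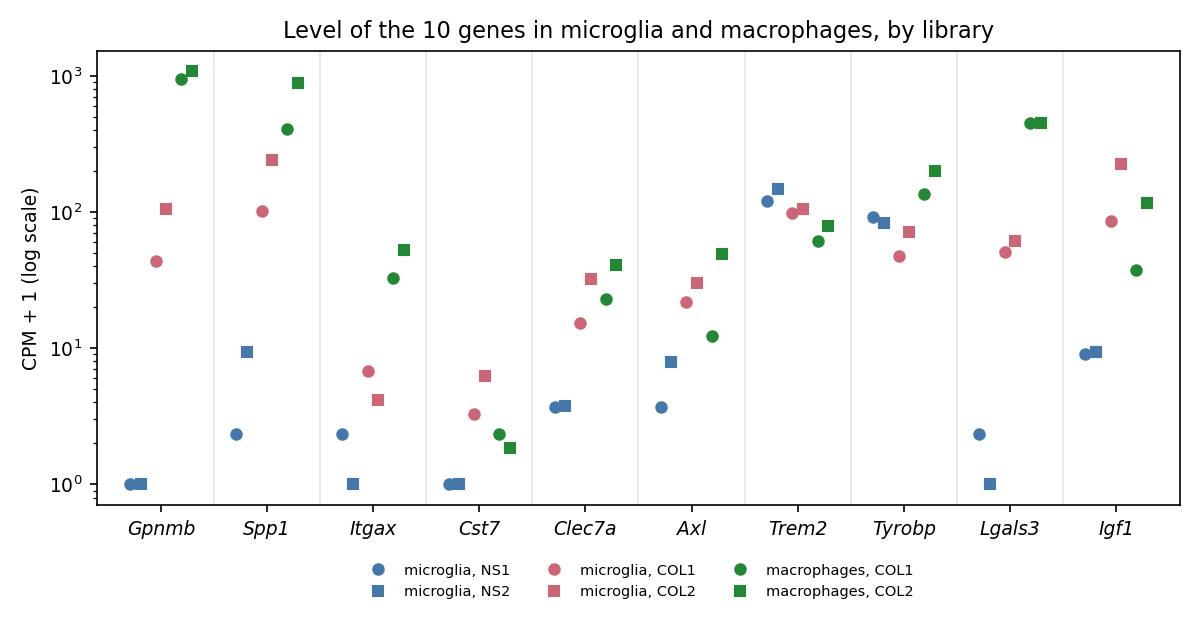
Level of the 10 genes in microglia (all 4 libraries) and macrophages (COL libraries) as CPM + 1 on a log axis, each point 1 library. Gpnmb is at 0 in both NS libraries and at 42.7 and 105 CPM in COL microglia, while Trem2 and Tyrobp lie slightly lower in COL than in NS.

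The second question was whether these genes belonged to microglia or to macrophages in the injured thalamus. Both cell types were present in the 2 COL libraries, so they could be compared within a library. Since the genes were picked with earlier results of these data known, the p-values of this contrast are no independent evidence. Gpnmb reached 957 and 1080 CPM in macrophages of COL1 and COL2 against the 42.7 and 105 CPM of microglia given above. The difference was 3.80 on the log2 scale (SE 0.20, adjusted p = 6.67e-08, edgeR quasi-likelihood test over 13368 genes with the library as a block and Benjamini-Hochberg adjustment). Gpnmb was thus higher in macrophages in 2 of 2 libraries, by more than the spread between them.

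Galectin-3, osteopontin and the adaptor Tyrobp were also higher in macrophages by the same edgeR test. Lgals3 reached 448 and 453 CPM (log2 difference 3.01, SE 0.13, adjusted p = 1.86e-08). Spp1 reached 408 and 883 CPM (1.93, SE 0.12, adjusted p = 1.51e-07), and Tyrobp 135 and 198 CPM (1.51, SE 0.13, adjusted p = 2.31e-06). For Spp1 the higher macrophage value and the higher microglial value came from the same library, COL2. Itgax (CD11c) had 48 and 121 UMIs in macrophages (31.9 and 51.7 CPM) and 10 and 9 UMIs in microglia (5.77 and 3.15 CPM). It met the filter on low counts, a level of 4.91 CPM in 2 libraries, through macrophages alone, so its fitted difference is given without a p (3.36, SE 0.34) and supports nothing.

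Igf1 and Trem2 went the other way. Igf1 measured 36.5 and 115 CPM in macrophages, against 85.3 and 226 CPM in microglia (log2 difference -1.05, SE 0.13, edgeR adjusted p = 6.32e-05). Trem2 measured 60.4 and 77.7 CPM in macrophages, against 97.4 and 105 CPM in microglia (-0.54, SE 0.14, edgeR adjusted p = 0.0108). These 2 calls depended on the setting. Without the library as a block the adjusted p was 0.223 for Igf1 and 0.0896 for Trem2, with DESeq2 Trem2 was at 0.404, and with cell types given to single nuclei from their marker UMIs alone Igf1 changed sign (log2 difference 0.09, adjusted p = 0.83) and Trem2 was at 0.127. Clec7a (21.9 and 40.2 CPM in macrophages; difference 0.44, SE 0.21, adjusted p = 0.164) and Axl (11.3 and 48.3 CPM; 0.28, SE 0.29, adjusted p = 0.545) did not pass the edgeR test. Axl was lower in macrophages than in microglia in COL1 and higher in COL2. Cst7, at 1.33 and 0.854 CPM in macrophages, failed the filter on low counts.

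Beside Itgax, 8 genes were tested, of which 4 were called higher in macrophages and 2 lower, where 13.6% and 12.4% of all genes tested were called. By this test Gpnmb, Lgals3, Spp1 and Tyrobp did not mark microglia as against macrophages in these libraries, whatever their use as genes of activated microglia. The clusters were formed from other genes of the same nuclei. Leaving out 1 of the 2 COL libraries leaves no residual degrees of freedom, so the values of both libraries are given instead. With both libraries few are left, so these p-values lean on the dispersion shared over genes. Without the library as a block the edgeR adjusted p of Gpnmb was 8.42e-05.

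**Figure D2:**
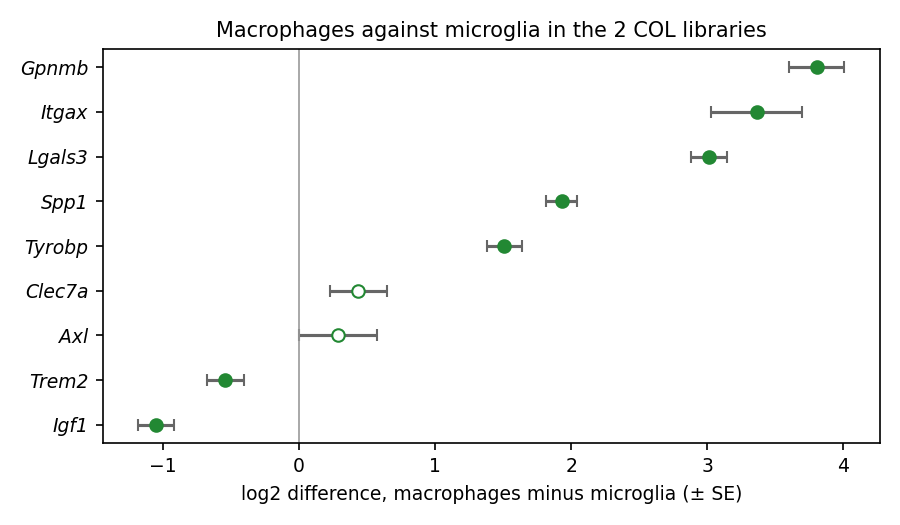
Difference between macrophages and microglia of the COL libraries for the 9 genes that met the filter on low counts, as log2 difference with bars of 1 SE. Filled points had an edgeR adjusted p under 0.05 and open points did not. The point of Itgax is filled too, but Itgax met the filter through macrophages alone, so its filling supports nothing. Gpnmb, Lgals3, Spp1 and Tyrobp lie to the side of macrophages, and Igf1 and Trem2 to the side of microglia.

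Macrophages held most of the Gpnmb transcripts of the injured thalamus. They contributed 69.8% and 62.0% of the Gpnmb UMIs in COL1 and COL2, although they made up 318 of 5931 and 469 of 6265 nuclei. Microglia contributed 3.59% and 7.39%, and neurons, the most numerous nuclei and the deepest of the named cell types, 14.1% and 14.2%. In the order of COL means, Gpnmb measured 1018 ± 87.1 CPM in macrophages (SD, n = 2 libraries), 74.0 ± 44.3 in microglia, 53.9 ± 0.12 in OPC, 30.9 ± 5.43 in astrocytes, 23.9 ± 18.6 in T and NK cells, 15.1 ± 10.4 in oligodendrocytes, 10.9 ± 8.77 in vascular cells and 9.42 ± 5.24 in neurons. Between neighbours in this order the libraries overlapped, except between macrophages and microglia and between OPC and astrocytes. With the called doublets removed, OPC measured 44.3 ± 20.7 CPM with 29.7 and 58.9 CPM in the 2 libraries, which overlapped with astrocytes (26.2 and 34.4 CPM). Only the step from microglia to macrophages was tested.

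**Figure D3:**
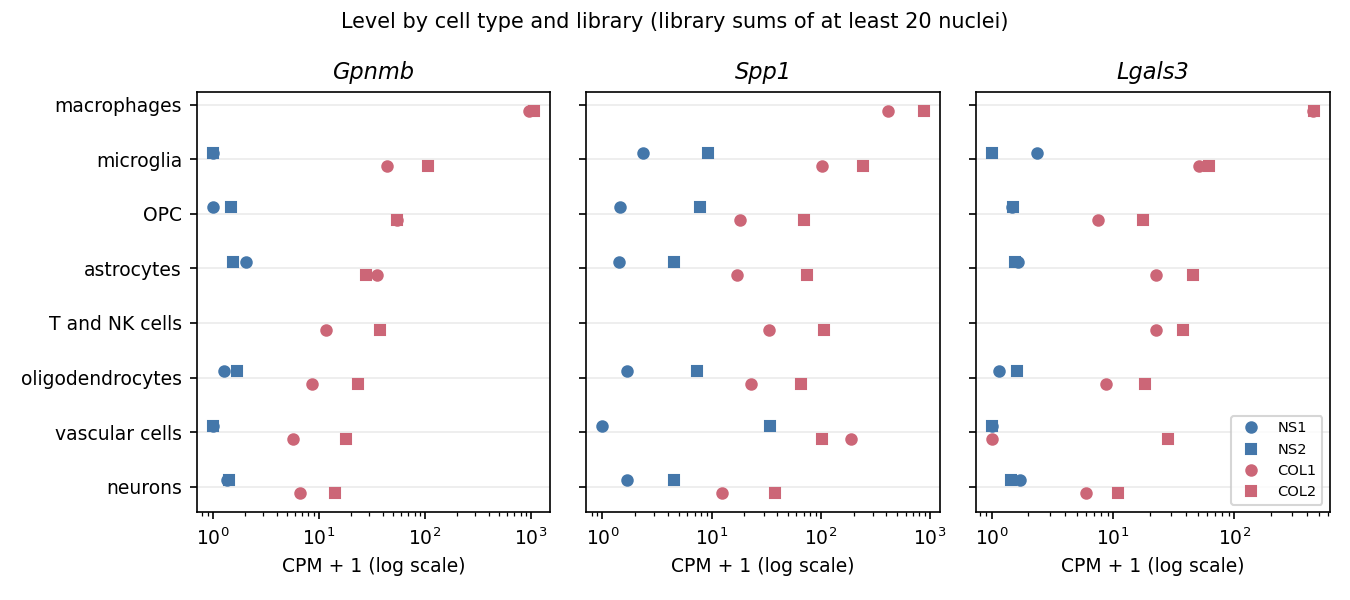
Level of Gpnmb, Spp1 and Lgals3 by cell type as CPM + 1 on a log axis, each point the sum of at least 20 nuclei of 1 NS or COL library. Gpnmb is at 957 and 1080 CPM in macrophages and between 4.72 and 105 CPM in every other cell type of the COL libraries, and macrophages are the highest for Spp1 and Lgals3 too.

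The same genes were counted in the other cell types of the COL libraries as well, many of them at low levels. Levels were not low for every gene, with COL means of 145.9 CPM for Spp1 in vascular cells and 36.3 CPM for Igf1 in neurons. Axl had COL means of 61.3 CPM in vascular cells and 38.5 CPM in astrocytes, where its NS mean was 44.4 CPM. In oligodendrocytes 9 of the 10 genes were higher in both COL libraries than in both NS libraries (23.0% of all genes there), in OPC 7 (20.1%), in neurons 6 (16.3%) and in astrocytes 5 (19.9%). The log2 fold change of Gpnmb was 4.66 (SE 0.45) in neurons, 4.85 (SE 0.64) in oligodendrocytes, 5.17 (SE 0.42) in astrocytes and 7.55 (SE 0.51) in OPC. RNA set free into the droplets can give low counts of a gene in every cell type, and its part in these values was not tested.

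Expressed as a share of the macrophage level in the same library, microglial Gpnmb stood at 4.46% and 9.75% in COL1 and COL2. The macrophage genes F13a1 (3.10% and 5.00%), Thbs1 (1.86% and 3.27%) and Arg1 (1.24% and 2.09%) stood lower in the same microglial nuclei, as did Ccr2 (3.63% and 2.47%). A further macrophage marker, Mrc1, went the other way, at 51.8% and 119% of the macrophage level. These are only some of the 12 macrophage markers. The sum of all 12 was 639 and 751 CPM in microglia and 4660 and 3739 CPM in macrophages of COL1 and COL2. That sum thus stood at a higher share of the macrophage level than Gpnmb in both libraries. Pf4 (6.34 and 5.25 CPM, against 102 and 90.1 CPM in macrophages) had a higher share than Gpnmb in COL1 only. In oligodendrocytes the Gpnmb share was 0.807% and 2.08%. In OPC it was 5.63% and 5.00% of the macrophage level, where F13a1 stood at 0.345% and 0.723%. That OPC level rested in part on called doublets, without which its 237 UMIs in the 2 libraries fell to 164. By contrast the microglial levels of Igf1, Trem2, Axl and Cst7 in COL1 exceeded those of macrophages, as listed above.

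How many nuclei carried a Gpnmb transcript depended on depth. At full depth 5.91% and 17.8% of COL microglia had a Gpnmb UMI, which was at or below the 8.38% and 18.4% of the deeper neurons (median 15091 and 14937 UMIs). After each nucleus was thinned to 1000 UMIs, the share in microglia was 1.08% in COL1 (exact 95% interval 0.295 to 2.75) and 6.53% in COL2 (4.62 to 8.93). In NS it was 0 of 319 and 0 of 342 nuclei, which allows up to 0.940% and 0.877% by 3 counts and up to 1.15% and 1.07% by the exact interval, so the COL1 interval overlaps those of NS. At the same depth 30.8% and 35.3% of macrophages had a Gpnmb UMI, and 0.80% and 2.89% of oligodendrocytes. In T and NK cells the shares were 1.85% (0.0469 to 9.89) and 5.00% (1.38 to 12.3), from only 54 and 80 nuclei with a median of 3080 and 3010 UMIs. The microglial share in COL1 was not above that of T and NK cells, and that in COL2 was above the interval of oligodendrocytes but within that of T and NK cells. The part of RNA set free into the droplets in these shares was not tested.

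Most Igf1 transcripts came from neurons, and the highest Axl levels from vascular cells and, in NS, astrocytes. Neurons held 89.2% and 90.8% of the Igf1 UMIs of NS1 and NS2 and 84.3% and 54.8% of those of COL1 and COL2. Their Igf1 level was 22.7 and 34.6 CPM in NS and 39.2 and 33.3 CPM in COL, so the groups overlapped. In microglia the share of the Igf1 UMIs was 0.420% and 0.343% in NS and 6.27% and 23.9% in COL. Axl was highest in vascular cells (61.3 ± 19.9 CPM in COL and 33.9 ± 8.0 CPM in NS, SD, n = 2 libraries of 27 to 61 nuclei) and astrocytes (38.5 ± 1.96 CPM in COL and 44.4 ± 6.87 CPM in NS). In astrocytes Axl was thus above its level in NS microglia, and the NS and COL libraries overlapped.

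Within microglia the Gpnmb transcripts were concentrated in few nuclei. In COL1 22 of 372 nuclei had a UMI, of which 14 had 1, 1 had 2 and 7 had 3 or more, with up to 16 in 1 nucleus. In COL2 98 of 551 nuclei had a UMI, of which 65 had 1, 19 had 2 and 14 had 3 or more, with up to 71. The 10 nuclei with the most Gpnmb held 83.8% and 61.5% of the microglial UMIs, against 29.3% and 17.5% in macrophages. Only 0 and 2 oligodendrocytes and 7 and 8 neurons reached 3 UMIs, or up to 0.298% of the nuclei, although both cell types had several times more nuclei. OPC lay near microglia, with 8 and 6 nuclei of 210 and 306 at 3 or more UMIs (3.81% and 1.96%, against 1.88% and 2.54% of microglia), up to 15 and 38 in 1 nucleus, and 82.4% and 67.8% of their Gpnmb UMIs in 10 nuclei. Among astrocytes 4 and 2 nuclei of 202 and 275 reached 3 UMIs (1.98% and 0.727%). The pattern was thus not particular to microglia. In macrophages 33.6% and 39.7% of the nuclei reached 3 UMIs.

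**Figure D4:**
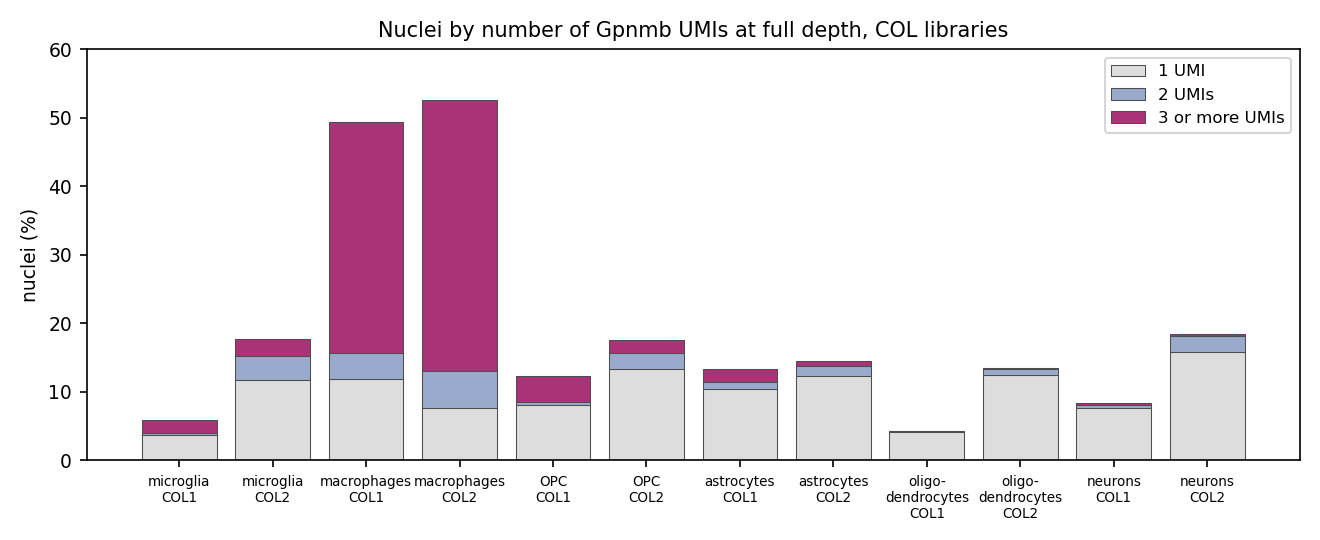
Share of nuclei of the COL libraries by number of Gpnmb UMIs (1, 2, or 3 and more), in percent of the nuclei of each of 6 cell types and library. Among nuclei with a Gpnmb UMI, those with 3 or more are the most frequent in macrophages, and those with 1 in the other 5 cell types.

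The 21 COL microglia with 3 or more Gpnmb UMIs held 256 of the 375 microglial UMIs. Since these nuclei were chosen on Gpnmb, their other genes are given as a description. They carried 423 CPM Spp1, 226 CPM Lgals3 and 724 CPM Igf1, whereas the 803 COL microglia without Gpnmb carried 153, 41.2 and 118 CPM. Their Trem2 level was 55.3 CPM against 106.5 CPM. Igf1 was higher in the nuclei with 3 or more Gpnmb UMIs in both libraries (266 against 70.2 CPM in COL1, 890 against 153 CPM in COL2), which were 7 and 14 nuclei with a median of 6437 and 7593 UMIs. When nuclei were thinned to 1000 UMIs and divided by any Gpnmb UMI, Igf1 was found in 0 of 4 nuclei with Gpnmb against 4.37% of the others in COL1, and in 33.3% of 36 against 9.71% in COL2. Macrophage markers summed to 1127 CPM in the 21 nuclei and to 647 CPM in those without Gpnmb, and microglia markers to 2792 and 5454 CPM. The doublet score marked 2 of the 21, and 2 had more macrophage than microglia marker UMIs. The part of doublets in these values was not tested.

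Among macrophages the nuclei with 3 or more Gpnmb UMIs (107 and 186) also carried more Spp1 and Lgals3. Spp1 was at 618 and 1545 CPM in them and at 268 and 297 CPM in the other macrophages, and Lgals3 at 659 and 597 CPM against 307 and 325 CPM. Itgax went the other way, with 6.63 and 31.9 CPM against 48.8 and 69.3 CPM. Trem2 was higher in the nuclei with much Gpnmb in both libraries (79.5 and 109 CPM against 47.7 and 49.9 CPM). These values describe 1 split of the nuclei by Gpnmb and have no test.

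The 10 genes were seen together more often in macrophages than in microglia or oligodendrocytes. At 1000 UMIs per nucleus 2 or more of them were detected in 1.88% and 1.75% of NS microglia and in 3.78% and 13.1% of COL microglia. In COL macrophages the share was 31.4% and 39.4%, and in COL oligodendrocytes 0.184% and 1.28%. COL1 microglia lay much closer to NS microglia than COL2 microglia did. No microglial nucleus had more than 4 of the 10 genes at this depth, and no macrophage more than 5.

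**Figure D5:**
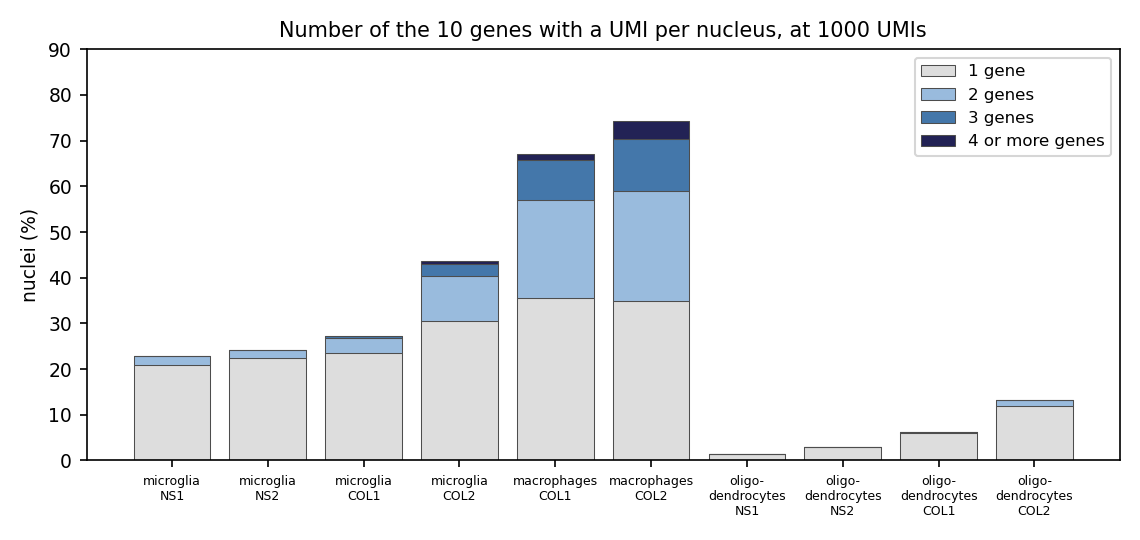
Number of the 10 genes detected per nucleus after thinning to 1000 UMIs, in percent of the nuclei of each cell type and library. Most microglia have none, and most macrophages have 1 or more.

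The shares of nuclei with the other genes differed from that of Gpnmb. Trem2 was detected in 12.2% and 15.5% of NS microglia and in 10.8% and 10.2% of COL microglia at 1000 UMIs, against 5.35% and 5.57% of macrophages and 0.677% and 1.35% of oligodendrocytes in COL. Igf1 was detected in 1.25% and 0.585% of NS and 4.32% and 11.2% of COL microglia, against 1.23% and 0.834% of oligodendrocytes and 1.85% and 2.50% of T and NK cells. Spp1 was detected in 4.86% and 13.4% of COL microglia, and in 2.28% and 5.84% of oligodendrocytes and 7.41% and 8.75% of T and NK cells, so in COL1 the microglial share lay between those of the 2 other cell types. Itgax (0 of 370 and 0.363%) and Cst7 (0.270% and 0.363%) were practically undetected in COL microglia at this depth.

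Microglia of the dividing cluster 23 were set beside the other COL microglia of cluster 11. Gpnmb measured 67.0 and 79.5 CPM in cluster 23 and 32.3 and 120 CPM in cluster 11, with no common direction in the 2 libraries. Spp1 (105 and 217 against 100 and 255 CPM) and Igf1 (78.5 and 224.5 against 88.7 and 227 CPM) lay close in the 2 clusters. Axl was lower in the dividing nuclei in both libraries (11.5 and 13.1 against 24.9 and 38.2 CPM), as were Tyrobp (24.9 and 42.3 against 56.4 and 85.1 CPM) and Trem2 (82.3 and 91.6 against 104.5 and 111.5 CPM). These differences between clusters were not tested.

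Further genes of the activated programme were compared between COL and NS microglia by the edgeR test on 12076 genes, in which 15% of all genes were called higher and 14.5% lower at an adjusted p under 0.05. Of 36 further activated microglia genes 34 were tested, and 20 were called higher, 1 fell (Fth1, ferritin heavy chain) and 13 did not pass. Of the 20, 8 met the filter on low counts (8.07 CPM in 2 libraries) through COL alone, as did 419 of the 1817 genes called higher in all. The other 12 were Ank, B2m, Cadm1, Cd83, Cd9, Csf1, Ctsb, Ctsd, Ctsz, Hif1a, Myo1e and Plin2. The number that fell was 2 without NS1 and 4 without COL2. Their median log2 fold change was 0.85, against 0.02 over all genes tested. This list and the gene lists in the paragraphs below were put together with results of these data known. Their counts and the p-values of their genes are therefore no independent evidence. The 8 genes with the largest fold changes were those 8, so their values are given without a p. Lpl, a lipase that frees fatty acids from lipoproteins, was at 2.69 and 2.79 CPM in NS and at 43.2 and 93.1 CPM in COL. Lilrb4a, an inhibitory receptor, was at 1.35 and 4.18 CPM in NS and at 62.3 and 65.1 CPM in COL.

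The chemokine Ccl4 was at 2.69 and 1.39 CPM in NS and at 16.1 and 23.8 CPM in COL. Ch25h, which makes an oxysterol, had 0 UMIs in NS and 18 and 43 UMIs in COL, and the chemokine Ccl3 had 0 UMIs in NS and 15 and 30 in COL. The scavenger receptor Colec12 had 0 and 7 UMIs in NS and 79 and 150 in COL, the NADPH oxidase subunit Cybb 0 and 2 against 16 and 82, and lysozyme (Lyz2) 1 and 9 against 64 and 304. For each of the 8 genes both COL libraries lay above both NS libraries in CPM, as did 24.1% of all genes with a UMI in microglia. Nothing is read from this, because the 8 were picked by their fold change in this contrast. DESeq2 did not call Ccl3, Colec12 and Lyz2. Of these 8 genes, Lyz2, Cybb and Lilrb4a were higher in macrophages than in microglia of the COL libraries (edgeR adjusted p = 1.75e-07, 2.48e-05 and 0.0105), while Lpl and Colec12 were lower (7.47e-05 and 0.00110). Ch25h was lower too but met the filter through microglia alone, so it has no p here. Of the 36 activated microglia genes 35 were tested in this comparison. In macrophages 21 were called higher, Atp6v0d2 passing the filter through macrophages alone, and 10 lower, beside 13.6% and 12.4% of all genes.

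Of 12 genes of the signalling chain below TREM2 and dectin-1, 11 were tested in COL microglia, and 1 rose and 1 fell, where 15% and 14.5% of all genes did. The adaptor Lcp2 (SLP-76) rose from 279 and 313 CPM to 511 and 450 CPM (log2 fold change 0.77, SE 0.17, edgeR adjusted p = 0.00324). The kinase subunit Pik3cg fell from 160 and 124 CPM to 70.3 and 92.4 CPM (-0.72, SE 0.20, adjusted p = 0.0141). Neither gene was called without NS1 (adjusted p = 0.0978 and 0.163), Pik3cg was not called by DESeq2 either, and 4 genes of the chain were called higher without COL2. The other 9, among them the kinases Syk and Btk and the phospholipase Plcg2, did not pass. Between macrophages and microglia of the COL libraries 2 of the 11 were higher in macrophages (Syk and Malt1) and 6 lower, among them Btk, Plcg2 and Card9, beside 13.6% and 12.4% of all genes tested.

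Between COL and NS microglia, the counts among receptors and partners of the ligands were close to those over all genes (15% higher and 14.5% lower). Of 21 genes 18 were tested, and 4 were called higher and 2 lower in COL microglia (1 lower without NS1, without NS2 or without COL2). Of the 4, Cd44, Itga4 and Lgals3bp met the filter on low counts through COL alone and are given without a p. Cd44, a receptor for osteopontin and hyaluronan, was at 6.73 and 2.79 CPM in NS and at 42.1 and 63.4 CPM in COL. In macrophages it stood at 804 and 439 CPM. Gas6, the ligand of AXL, rose from 49.8 and 44.6 to 150.5 and 153 CPM (log2 fold change 1.75, SE 0.21, edgeR adjusted p = 3.15e-05) and was lower in macrophages (45.8 and 57.2 CPM, adjusted p = 3.87e-06). Between macrophages and microglia of COL, 9 of the 19 genes tested were called higher and 6 lower, beside 13.6% and 12.4% of all genes. Of the 6, Itgb3 met the filter through microglia alone.

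Among the integrin chains of this list, Itga9 fell, and Itgav, Itgb1, Itgb2, Itgb3 and Itgb5 did not pass. Itga4 had 1 UMI over both NS libraries and 31 and 77 UMIs in COL. Itga9 fell from 369 and 302 CPM to 116 and 105 CPM (-1.54, SE 0.18, edgeR adjusted p = 2.14e-05). The galectin-3 binding protein Lgals3bp was at 8.08 and 5.57 CPM in NS and at 19.0 and 18.6 CPM in COL, and Igfbp5, which binds insulin-like growth factors, fell (-1.26, SE 0.38, adjusted p = 0.0199). Both calls were fragile, as Lgals3bp was not called when any 1 library was left out, and Igfbp5 was called only in the fit without COL1 among these 4 fits. DESeq2 called neither. All 4 MiT/TFE factors, a family known to drive lysosomal genes and Gpnmb, were tested, of which 2 were called higher and 2 did not pass. Mitf rose from 454 and 483 CPM to 796 and 1012 CPM (1.02, SE 0.17, edgeR adjusted p = 0.000393). Tfec, which met the filter through COL alone, had 0 and 1 UMI in NS and 63 and 109 UMIs in COL. Tfeb and Tfe3 did not pass.

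Across 28 sums of nuclei by cell type and library, the genes whose log2(CPM + 1) followed that of Gpnmb most closely, the other 9 members left out, were Lyz2 (Pearson 0.937), the haem oxygenase Hmox1 (0.935), the platelet factor Pf4 (0.923), the invariant chain Cd74 (0.916) and Chil3 (0.913), out of 17425 genes compared. All 5 were higher in macrophages than in microglia of both COL libraries, for example Hmox1 with 862 and 329 CPM against 213 and 160 CPM. Among the 10 genes themselves Lgals3 was closest to Gpnmb (0.951), followed by Spp1 (0.849), Itgax (0.786) and Clec7a (0.731). Axl (0.316) and Trem2 (0.366) were farthest. The sums share libraries, so these correlations are descriptions only.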

How the data were processed

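Nuclei were isolated from thalamus and run on the 10x Genomics platform, with 2 libraries per group, each of 3 pooled mice. The values used are UMI counts per gene and nucleus that the authors deposited for each library, made per the labels with Cell Ranger 1.2.0 on build mm10. Whether reads in introns were counted is not given in the sources used here. The counts had not been normalized. Nothing in the labels says that the 2 libraries of a group came from separate preparations, so p-values measure the spread between libraries.

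Nuclei with at least 50 genes and at most 5% mitochondrial UMIs were kept. Clusters were built with Seurat 5.3.0 (4947 variable genes without any listed gene, 15 components, resolution 0.8) and named from marker lists where at least 3 markers were detected in 25% of the nuclei and the second cell type scored under 0.6 of the best. These limits were set after the clusters had been seen. Endothelial and mural or fibroblast clusters were joined as vascular cells. Doublets were scored against simulated ones and removed only in an alternative (4.74% to 8.34% of nuclei).

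UMIs were summed per cell type and library and tested with edgeR 4.0.16 (TMM, filterByExpr, quasi-likelihood, Benjamini-Hochberg), and with DESeq2 1.42.0 as an alternative. Level sums are in CPM over all UMIs of the cell type. Shares of nuclei were taken after thinning to 1000 UMIs, with exact Clopper-Pearson intervals, and ratios of pooled counts have exact conditional intervals. In these sums, less RNA per nucleus and fewer expressing nuclei cannot be told apart. The members and gene lists were chosen with earlier results of these data known. Genes given with values were all members, up to 8 called genes per list by fold change, markers of cell types and the 5 genes most correlated with Gpnmb. Those 5 were taken among genes at 10 CPM or more in at least 1 sum. Other genes of the lists are named without values. Simulated counts with known changes were run through the same edgeR steps. In the microglial comparison (12076 genes) 36% of genes changed 2-fold and 92% of those changed 4-fold were found. Alternatives covered the test, the filter, the replicate number, each library, the cell assignment, doublets, dividing nuclei and thinning depth.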

Additional observations from a re-analysis of the deposited data

Results flagged for a closer look

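Tyrobp was lower in both COL libraries than in both NS libraries in microglia and higher in both COL libraries in neurons, oligodendrocytes, astrocytes and OPC. Its log2 fold change minus that of microglia was 2.55 in neurons, 2.22 in oligodendrocytes, 2.63 in astrocytes and 3.28 in OPC. These differences between cell types were not tested. The levels of Tyrobp outside microglia and macrophages were low, with 2.17 and 8.42 CPM in neurons and 4.02 and 17.1 CPM in oligodendrocytes of COL1 and COL2. In NS1 and NS2 they were 0.817 and 1.90 CPM in neurons and 2.44 and 4.00 CPM in oligodendrocytes. In these 2 cell types COL1 thus lay close to NS2.

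Nuclei of clusters that were mixed or could not be named were left out of all comparisons. In them Gpnmb averaged 33.2 CPM over the 2 COL libraries (18.0 and 48.3 CPM), against 0.494 and 0.599 CPM in NS1 and NS2. They held 2.28% and 5.52% of the Gpnmb UMIs of COL1 and COL2.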

How the results depend on the processing

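Limits. With 2 libraries per group, the number of genes called between COL and NS microglia moved with the test and with single libraries. It was 3572 in the edgeR fit (1817 higher, 1755 lower) and 1718 with DESeq2 (1000 higher, 718 lower). Leaving out 1 library in turn gave 2172 to 3717 genes, with 1155 to 1852 higher and 1017 to 1865 lower, and the lowest value came without NS2. A lone library is assumed in such a fit to vary like the other group. Without a filter on low counts the median log2 fold change of all genes moved from 0.02 to 0.18. Nuclei of macrophages were too few in NS to be compared between the groups. Low genes such as Cst7 and Itgax stayed close to the limit of detection in microglia.

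The replicate numbers 1 and 2 occur in both groups, and the labels do not say whether libraries with the same number share a preparation. The correlation of deviations was 0.087, and -0.087 when crossed, which is its mirror image by construction. With 2 pairs it cannot tell whether anything beyond the number was shared. With the replicate block 4118 genes were called (2060 higher, 2058 lower), and 35 instead of 31 genes of the other lists.

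Of the genes of the other lists, 4 were lower in COL microglia. DESeq2 left 1, and 2 were left without dividing nuclei. Between macrophages and microglia the 4 higher calls (Gpnmb, Lgals3, Spp1 and Tyrobp) were also made with DESeq2 and without the library as a block. They were made with cell types given to single nuclei too, where Itgax was not tested. Itgax is left out of this count, as it met the filter on low counts through macrophages alone. The 2 lower calls became 1 with DESeq2, 0 without the block and 0 with cell types given to single nuclei. Under that assignment the log2 difference turned to -0.30 for Axl, -0.090 for Clec7a and 0.091 for Igf1, and with DESeq2 to -0.0061 for Axl. The mean share of COL microglia with a Gpnmb UMI was 3.81% at 1000 UMIs and 11.8% at full depth. The mean share with 2 or more members was 8.43% at 1000 and 20.8% at 2000 UMIs. Over all values and settings compared, 344 stayed on the same side or within a set limit, 58 moved beyond it, 4 changed sign and 4 no longer passed the threshold. The limit was a fixed ratio for counts of genes called, and the spread between libraries for fold changes and shares of nuclei. The cause of these shifts was not tested.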
